A study of Mus musculus with 9 samples.

Results

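The axon guidance ligands and receptors of 66cl4 cells were followed across 9 libraries of messenger RNA. They are the semaphorins, netrins, Slits and ephrins on the ligand side and the plexins, Unc5, Robo and Eph receptors on the receptor side. The count table held 66 symbols of these families, and the 50 with a mean of at least 0.1 CPM (the count as a share of the library total, scaled up by 1e6) in any group were taken as members, out of 52208 rows. They were 18 semaphorins, 2 netrins (Ntn1 and Ntn5), 1 Slit (Slit2), 7 ephrins, 9 plexins, 2 Unc5 receptors (Unc5b and Unc5d), 2 Robo receptors (Robo2 and Robo3) and 9 Eph receptors. Of the 50 members, 40 reached 0.1 CPM in every group and 10 in only 1 or 2 groups, so a difference in those 10 is in part built into their choice. The 10 were Epha4, Epha5, Epha10, Ntn5, Plxna4, Plxnb1, Plxnc1, Robo2, Sema3d and Sema6a. The lowest member was Epha10, whose highest group mean was 0.106 CPM, and the highest symbol left out was Epha8 with 0.0931 CPM.

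66cl4 is a mouse mammary carcinoma line that the labels call triple negative. Scramble cells carried a non-targeting hairpin with an empty vector, knockdown cells a hairpin against Eya3 with the empty vector, and add-back cells the Eya3 hairpin with IKK2-SE, an always-on mutant of the IkappaB kinase upstream of NF-kB. Every arm was kept in puromycin and selected on mCherry, and each had 3 biological replicates. The labels give neither separate transductions nor clones, so p-values measure only the spread between these samples, which may be technical. All 3 arms are whole cultures, in which fewer cells with a transcript and less of it in each cell cannot be told apart.

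Axon guidance cues were named for steering growth cones, and the same proteins act on epithelial, endothelial and tumour cells. Semaphorins bind plexins, with secreted class 3 semaphorins mostly needing a neuropilin as coreceptor. Netrins bind Dcc, neogenin and Unc5 proteins, and Slits bind Robo receptors. Ephrins, held at the membrane by a lipid anchor (A class) or a transmembrane stretch (B class), bind Eph receptor tyrosine kinases on the neighbouring cell and can signal in both cells.

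Library totals ran from 63601403 to 81534534 counts, and levels below are CPM scaled by the trimmed mean of M-values (TMM). Eya3, the targeted gene, stood at 62.96, 64.13 and 60.91 CPM in the scramble libraries, 25.34, 25.29 and 24.28 CPM in the knockdown libraries and 28.99, 26.05 and 24.66 CPM in the add-back libraries. Nfkbia, an NF-kB target, was at 221.2 ± 5.76 CPM (SD, n = 3) in scramble cells and at group means of 44.27 and 109.6 CPM in knockdown and add-back cells. Of 8 epithelial markers, 5 were below 1 CPM in every group: Epcam and Cdh1 were at 0.04437 and 0.07603 CPM in scramble cells. Krt8 was at 628.2, 1329 and 1073 CPM in scramble, knockdown and add-back cells and Krt14 at 1.241, 0.3046 and 0.1199 CPM, and of 5 epithelial markers tested 3 rose and 1 fell with knockdown. Of the receptors whose absence defines triple-negative tumours, Pgr had no count, while Esr1 and Erbb2 were at 11.81 and 55.39 CPM. Neuronal markers summed to between 0.2373 and 0.5606 CPM in all libraries, and Map2 and Snap25 had no count. Endothelial markers summed to 5.134 to 6.017 CPM in scramble, 0.6514 to 1.147 in knockdown and 1.696 to 2.019 in add-back libraries. In the same order, Cdh5 was at 4.357, 0.2258 and 0.6337 CPM, Tie1 at 0.5123, 0.07749 and 0.5083 and Emcn at 0, 0.1621 and 0.2255. Cldn5 had no count, and Kdr was at 0.01796 CPM in scramble cells. Of 5 endothelial markers tested, 1 rose, 2 fell and 2 did not pass with knockdown. Of the macrophage list (35.12 to 36.69, 12.47 to 13.29 and 19.34 to 20.24 CPM), Adgre1 had no count in scramble and knockdown cells. Cd14 was at 15.32, 7.498 and 11.88 CPM in scramble, knockdown and add-back cells, Cd68 at 14.49, 4.196 and 3.428 and Mrc1 at 6.005, 0.9291 and 4.161. Of 4 macrophage markers tested, 3 fell and 0 rose with knockdown. Fibroblast markers summed to 51.91 to 54.45, 50.11 to 55.94 and 56.1 to 59.59 CPM, and Thy1 had no count. Pdgfra made up most of that sum (47.94, 39.79 and 42.68 CPM), while Pdgfrb was at 1.236, 7.084 and 10.71 CPM and Col1a2 at 0.06821, 4.176 and 1.659 CPM. Of 5 fibroblast markers tested, 3 rose and 2 fell with knockdown. All these marker counts stand against 27.7% of all tested genes called higher and 29.9% called lower with knockdown. The part of these lists in the results below was not tested.

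In scramble cells 1 receptor, Epha2, stood far above all other members. Levels of different genes were compared as CPM per kilobase of union exon length. Epha2, an ephrin-A receptor common in carcinoma cells, led the Eph receptors with 122 ± 5.7 CPM per kilobase (SD, n = 3) in scramble cells, ahead of Ephb4, a receptor of ephrin-B2, with 16.3 ± 0.61. Among plexins the order was Plxnb2, a receptor of class 4 semaphorins, with 32.0 ± 1.5, then Plxna1, which pairs with neuropilins, with 12.7 ± 0.24. Efnb2 led the ephrins with 14.7 ± 0.46, followed by Efna1 with 7.97 ± 0.16 and Efna5 with 6.58 ± 0.16. Among semaphorins, the transmembrane Sema6b came first with 24.3 ± 1.7, then Sema3e, the ligand of plexin D1, with 19.2 ± 0.39. The next pair, Sema4b with 11.7 ± 0.82 and Sema3c with 11.2 ± 0.40, overlapped in single libraries. Unc5b, a netrin receptor that can act in the absence of its ligand, was at 14.2 ± 1.3, Ntn1 at 4.13 ± 0.13 and Slit2 at 0.198 ± 0.021.

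**Figure D1:**
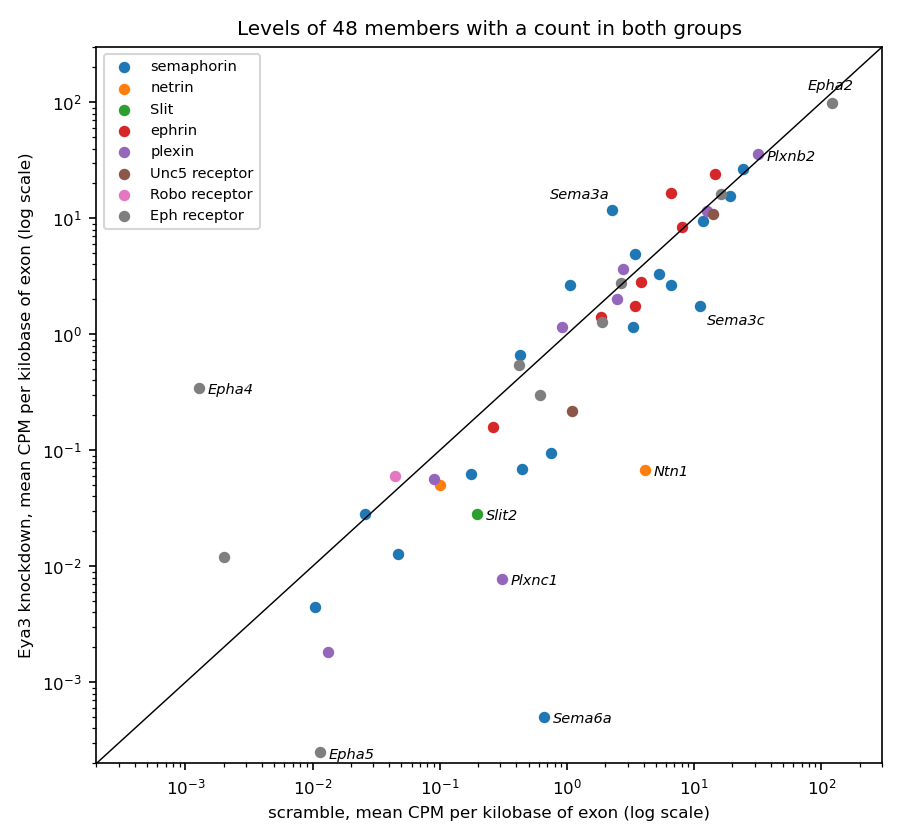
Mean level of each member in scramble (x axis) and knockdown cells (y axis), in CPM per kilobase of exon on log scales, coloured by family, with the line of equality. It draws the 48 members with a count in both groups. Epha2 and Plxnb2 lie near the line at the top, Ntn1, Plxnc1 and Sema6a far below it and Epha4 far above it.

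Knockdown against scramble asks which guidance genes differ when Eya3 is reduced. Of the 50 members, 44 had counts enough for edgeR's quasi-likelihood test over all 16766 tested genes. Of those 44, 25 fell, 11 rose and 8 did not pass at a Benjamini-Hochberg adjusted p of 0.05. Over all tested genes, 57.5% passed in either direction, 29.9% lower and 27.7% higher. Changes of at least 2-fold were 13 falls and 4 rises among the 44, against 14.7% of all tested genes in either direction. The median size of the log2 change was 0.68 over the 44 and 0.32 over all tested genes. The 44 passed a filter on counts, and some only through the group in which they are high, so these figures describe the list and support nothing further.

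By role, ligands gave 17 falls and 6 rises among 27 tested, with a median of -0.68, and receptors 8 falls and 5 rises among 17 tested, with a median of -0.14. Semaphorins gave 11 falls and 4 rises among 17 tested, ephrins 4 falls and 2 rises among 7, plexins 3 and 3 among 7, and Eph receptors 3 and 2 among 7. Both Unc5 receptors fell, as did Slit2 and, of the 2 netrins, Ntn1. Calls on Efnb3, Plxna1, Plxna3 and Plxnb2 were each lost when a single library was left out. That held for Efnb3 without scramble replicate 3 or knockdown replicate 2 or 3 (adjusted p = 0.199, 0.0798 and 0.0648) and for Plxna1 without replicate 2 of scramble or knockdown (0.0505 and 0.102). It held for Plxna3 without scramble replicate 2 or knockdown replicate 1 (0.0665 and 0.0758) and for Plxnb2 without scramble replicate 3 or knockdown replicate 1 (0.0669 and 0.0695). Plxnb2 also lost its call with library totals as the scaling (0.0647).

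**Figure D2:**
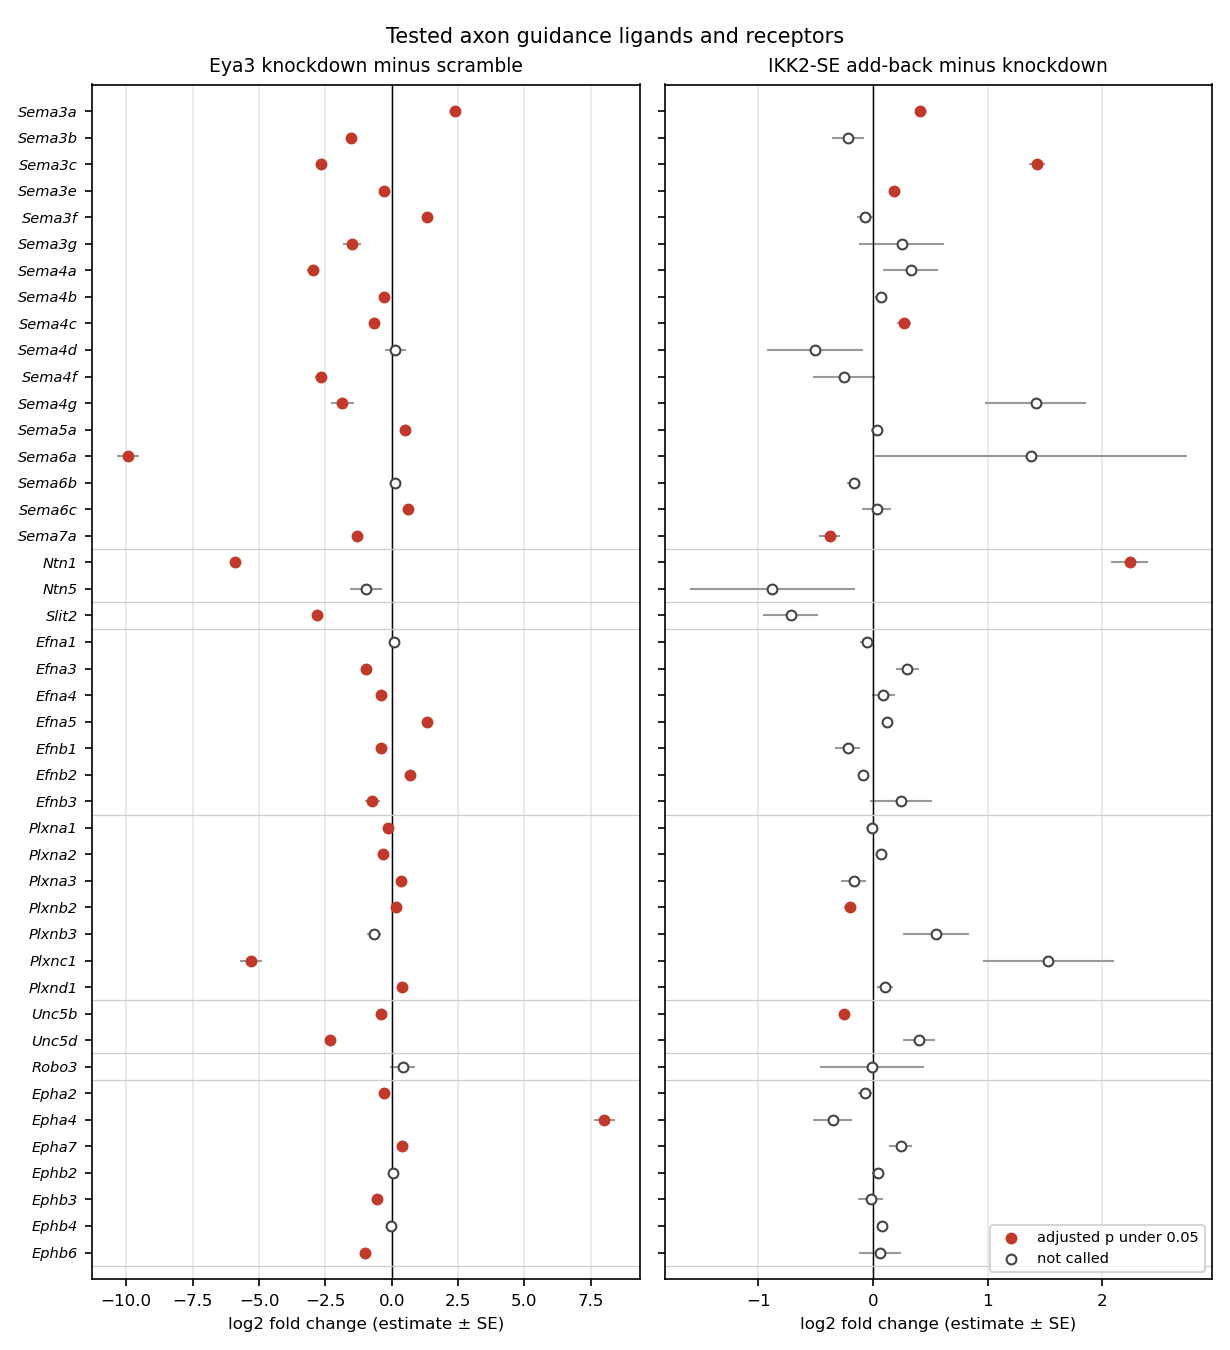
Log2 fold change (estimate ± SE, x axis) of the 44 tested members, one per row and separated by family, for knockdown minus scramble on the left and add-back minus knockdown on the right. The 2 panels have different x scales, and filled points passed an adjusted p of 0.05. The left panel holds 36 filled points and the right panel 8, among them Ntn1 and Sema3c on the far right.

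The class 3 semaphorins, which are secreted, changed in opposite directions. Sema3a, the classical repellent that acts through neuropilin-1 and plexin-A receptors, was at 31.39, 29.93 and 32.92 CPM in the scramble libraries, 159.3, 165.5 and 168.4 in the knockdown libraries and 218.9, 220.6 and 217.0 in the add-back libraries. Every knockdown library lay above every scramble library, and every add-back library above both. Sema3a rose by 2.39 ± 0.04 on the log2 scale with knockdown (edgeR adjusted p = 1.32e-16), a 5.23-fold ratio of the means. Sema3c, which also binds neuropilins and is less often a repellent, was at 77.59, 78.47 and 82.95 CPM with the scramble hairpin, 12.25, 11.54 and 13.75 with the Eya3 hairpin and 34.77, 31.11 and 35.47 with IKK2-SE. No 2 groups overlapped, and the add-back libraries lay between the other groups. Sema3c fell by 2.67 ± 0.07 with knockdown (edgeR adjusted p = 9.84e-15), to 15.7% of the scramble mean.

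Per kilobase of exon, the order within the class changed. In scramble cells Sema3e, Sema3c, Sema3b and Sema3a stood at 19.2, 11.2, 3.31 and 2.26 CPM per kilobase. In knockdown cells the order was Sema3e with 15.7, Sema3a with 11.9, Sema3f with 2.64, Sema3c with 1.75 and Sema3b with 1.15. Sema3e fell by 0.29 ± 0.04 on the log2 scale (edgeR adjusted p = 4.35e-06) and stayed first in all 3 groups. Sema3a (chromosome 5, 13125414 to 13602565, plus strand, GRCm38/mm10) and Sema3e lie 422710 bases apart on chromosome 5, and Sema3c (17574281 to 17730268, plus strand) is on the same chromosome. The 20 tested genes on each side of Sema3a, Sema3c and Sema3e had median changes of 0.21, 0.25 and 0.28.

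**Figure D3:**
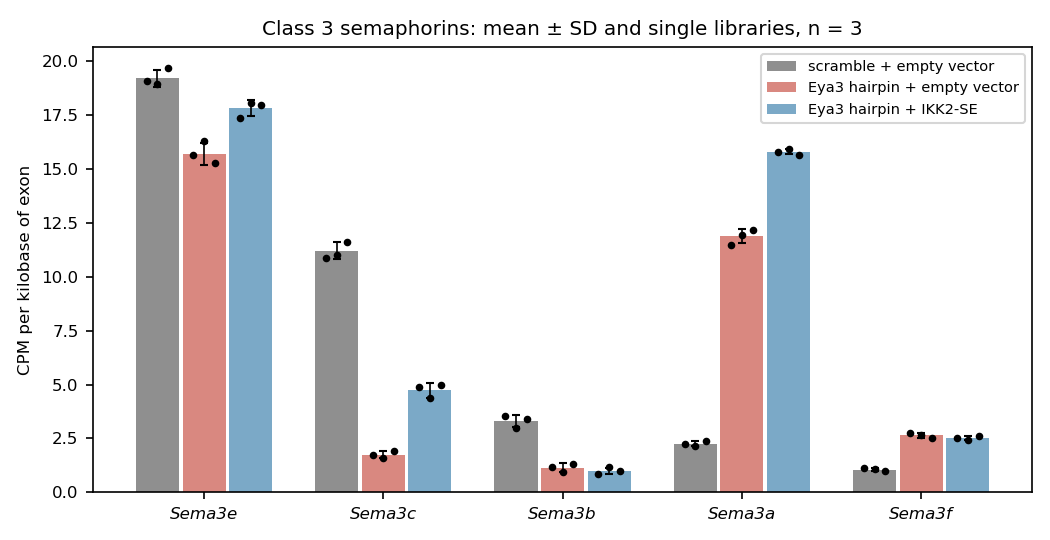
CPM per kilobase of exon (y axis) of 5 class 3 semaphorins in scramble, knockdown and add-back cells, with bars at the mean, whiskers of 1 SD and points for single libraries (n = 3). Sema3c bars stand at 11.2, 1.75 and 4.73 and Sema3a bars at 2.26, 11.9 and 15.8.

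Sema3b and Sema3f, neighbours 72270 bases apart on chromosome 9 (107597674 to 107609229 and 107681500 to 107710475, both on the minus strand), also moved apart. Sema3b, described as a tumour suppressor in several carcinomas, was at 16.95, 14.21 and 16.19 CPM in scramble, 5.733, 4.447 and 6.368 in knockdown and 3.998, 5.569 and 4.671 in add-back libraries. Sema3f, a neuropilin-2 ligand, was at 5.801, 5.556 and 5.048 CPM in scramble, 14.35, 13.72 and 13.12 in knockdown and 13.04, 12.55 and 13.59 in add-back libraries. For both genes the scramble libraries stood apart, while the Eya3 hairpin groups overlapped. Sema3b fell by 1.52 ± 0.13 (edgeR adjusted p = 4.64e-08) and Sema3f rose by 1.33 ± 0.08 (edgeR adjusted p = 2.76e-10). Their neighbourhood had a median of -0.11. Sema3g, at 0.8004 CPM in scramble cells, fell by 1.49 ± 0.34.

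The promoters of Sema3a and Sema3c are shown because these class 3 members moved most in opposite directions. Each is 300 bases from RefSeq (GRCm38.p6), 250 before the start and 50 from it on, written 5′ to 3′ on the gene's strand with CG dinucleotides in capitals. Both RefSeq starts lie inside the GENCODE gene models. The Sema3a model begins at 13125414, far before the window shown, and the Sema3c model at 17574281, close before it. Whether the counted transcripts of Sema3a start at this window was not tested, so the 2 windows may not be alike in kind.
Sema3a, chr5:13396534-13396833, plus strand: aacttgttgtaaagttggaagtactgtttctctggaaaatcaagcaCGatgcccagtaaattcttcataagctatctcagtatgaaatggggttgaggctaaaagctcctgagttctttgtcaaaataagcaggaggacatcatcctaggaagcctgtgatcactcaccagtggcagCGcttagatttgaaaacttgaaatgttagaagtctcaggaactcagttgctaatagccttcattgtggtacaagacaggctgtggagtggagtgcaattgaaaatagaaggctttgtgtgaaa
Sema3c, chr5:17574566-17574865, plus strand: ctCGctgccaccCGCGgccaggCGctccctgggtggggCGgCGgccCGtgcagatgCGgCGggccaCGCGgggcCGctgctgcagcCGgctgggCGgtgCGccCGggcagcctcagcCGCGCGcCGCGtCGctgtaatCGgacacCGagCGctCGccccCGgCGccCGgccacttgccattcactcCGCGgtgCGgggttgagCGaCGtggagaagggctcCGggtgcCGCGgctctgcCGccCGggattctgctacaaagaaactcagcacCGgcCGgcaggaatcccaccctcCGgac
The Sema3a window holds 2 CG dinucleotides and 41.3% G and C, and the Sema3c window 42 and 75.7%. Over all 32851 promoters of that table the medians were 7 CG and 52.7%. Windows with 2 or fewer CG made up 23.3% of promoters and those with 42 or more 3.03%.

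Of the 11 membrane semaphorins tested, 7 fell, 2 rose and 2 did not pass, against 29.9% lower and 27.7% higher over all tested genes. Sema6a, a transmembrane ligand of plexin-A2 and plexin-A4, was at 5.832, 5.761 and 5.925 CPM in scramble libraries. In knockdown libraries it was at 0, 0 and 0.01329 CPM and in add-back libraries at 0, 0.0424 and 0 CPM. Its transcript was thus close to undetected whenever the Eya3 hairpin was present. Sema6a reached the level required of members only in scramble cells, so part of this difference is built into its choice. The counts were 1273 over the scramble group and 1 over the knockdown group, a ratio of 1360 with an exact 95% interval of 245 to 53900 that covers counting error only (edgeR adjusted p = 3.57e-12). Sema6b and Sema6c, of the same class, differed by 0.14 ± 0.06 (edgeR adjusted p = 0.0525) and rose by 0.63 ± 0.13, with a median of 0.40 among the neighbours of Sema6c. Sema6b passed in 9 of 17 alternatives, and its adjusted p ran from 0.000815 to 0.227.

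Class 4 semaphorins, which act on plexin-B receptors and on immune cells, gave 5 falls among 6 tested. By adjusted p, 0 were higher with edgeR, DESeq2 or limma voom, and 0 were higher at an unadjusted edgeR p under 0.05. Over all tested genes 29.9% were lower and 27.7% higher. Sema4a was at 4.3, 3.93 and 3.932 CPM in scramble, 0.5371, 0.6116 and 0.3855 in knockdown and 0.8577, 0.5088 and 0.5571 in add-back libraries. Sema4f was at 2.258, 2.599 and 2.165 CPM, 0.3997, 0.446 and 0.2526 CPM, and 0.3563, 0.2544 and 0.3143 CPM in the same order. In both genes the hairpin groups overlapped each other and lay far under scramble. Sema4a fell by 2.98 ± 0.20 (edgeR adjusted p = 2.16e-09) and Sema4f by 2.67 ± 0.22 (edgeR adjusted p = 2.55e-08). Sema4c and Sema4b, which are far more abundant, fell by 0.68 ± 0.06 and 0.30 ± 0.05, and Sema4g fell by 1.86 ± 0.43 from 0.4047 CPM. Sema4d, at 0.1984 CPM in scramble cells, differed by 0.14 ± 0.41.

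Sema7a, a lipid-anchored semaphorin, and Plxnc1, its plexin receptor, both fell. Sema7a (chromosome 9, 57940112 to 57962865, plus strand) was at 23.5, 23.17 and 18.84 CPM in scramble, 8.631, 9.416 and 8.15 in knockdown and 6.571, 6.572 and 6.928 in add-back libraries. Plxnc1 (chromosome 10, 94790866 to 94944835, minus strand) was at 2.413, 2.432 and 2.936 CPM in scramble, 0, 0.1147 and 0.07977 in knockdown and 0.2375, 0.09894 and 0.2286 in add-back libraries. Scramble libraries were the highest for both genes, without overlap. Sema7a fell by 1.32 ± 0.09 (edgeR adjusted p = 1.50e-09) and Plxnc1 by 5.30 ± 0.41 (edgeR adjusted p = 1.16e-08). Plxnc1 did not reach the level required of members in knockdown cells, so part of its fall is built into its choice. The genes around Plxnc1 had a median change of -0.58, and its part in the fall of Plxnc1 was not tested. Itgb1, the beta-1 integrin that is the other known Sema7a receptor chain, fell by 0.23 ± 0.03 from 623.9 CPM.

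The other tested plexins differed by 0.67 or less on the log2 scale. Plxna2 and Plxna1 fell by 0.31 ± 0.04 and 0.14 ± 0.05, and Plxnd1, Plxna3 and Plxnb2 rose by 0.40 ± 0.07, 0.35 ± 0.11 and 0.16 ± 0.05. Plxnb3 differed by -0.67 ± 0.28 (edgeR adjusted p = 0.0522). Plxna2 had only 26 tested neighbours, against 40 for the other tested members. Their median was -0.77, a larger fall than that of Plxna2 itself. Of the semaphorin class 5 genes, Sema5a, which binds plexin-B3, rose by 0.50 ± 0.05 to 91.19 ± 3.01 CPM (SD, n = 3). Nrp1 and Nrp2, the neuropilins of the class 3 ligands, rose by 0.32 ± 0.05 and 0.10 ± 0.04. The call on Nrp2 was lost in 4 of 17 alternatives, among them library totals as the scaling (adjusted p = 0.251) and without scramble replicate 1 (0.133), scramble replicate 2 (0.0666) or knockdown replicate 3 (0.109).

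Among the member ligands with more than 3 counts in each group, netrin-1 had the largest fall. Ntn1 (chromosome 11, 68209364 to 68400823, minus strand, protein coding) was at 26.9, 25.52 and 25.37 CPM in scramble libraries. It was at 0.5121, 0.4332 and 0.3324 CPM in knockdown and 2.27, 1.682 and 2.129 CPM in add-back libraries. The 3 groups did not overlap, and the add-back libraries lay above the knockdown libraries and far under the scramble libraries. Ntn1 fell by 5.92 ± 0.13 with knockdown (edgeR adjusted p = 2.05e-15), to 1.64% of the scramble mean. The genes around it had a median of -0.07.

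The netrin receptors fell less. Unc5d, a dependence receptor of the Unc5 family, was at 10.39, 10.15 and 9.618 CPM in scramble, 2.161, 2.013 and 1.835 in knockdown and 2.876, 2.982 and 2.043 in add-back libraries. Its hairpin groups overlapped, and both lay under scramble. Unc5d fell by 2.33 ± 0.13 (edgeR adjusted p = 1.36e-10). Unc5b, at 97.0, 89.08 and 80.98 CPM in scramble and 69.38, 69.1 and 65.82 in knockdown libraries, fell by 0.39 ± 0.05 (edgeR adjusted p = 1.03e-05). Neo1, which encodes neogenin, fell by 0.12 ± 0.04 from 248.2 CPM (edgeR adjusted p = 0.0093), a call lost without knockdown replicate 2 (0.0609). Dcc was at 0.05541 CPM in scramble cells and was not tested. Ntn5 differed by -0.98 ± 0.61 at 0.2216 CPM in scramble cells (edgeR adjusted p = 0.184).

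Slit2 fell, and its receptors had few counts. Slit2 (chromosome 5, 47983138 to 48307733, plus strand), a large secreted repellent, was at 4.919, 5.62 and 4.57 CPM in scramble, 0.5496, 0.6498 and 0.9572 in knockdown and 0.4354, 0.3533 and 0.5143 in add-back libraries. The scramble libraries stood alone, and the add-back libraries lay under the knockdown libraries without overlap. Slit2 fell by 2.81 ± 0.19 with knockdown (edgeR adjusted p = 1.64e-09), while its neighbours had a median of 0.27. Robo3 was at 0.3052 ± 0.104 CPM (SD, n = 3) in scramble cells and differed by 0.42 ± 0.47. Robo2 had 24 counts over the scramble group and none with the Eya3 hairpin. With 3 counts taken as a floor for the knockdown group, it was 8.58-fold lower there, counting error in the 24 left out. Robo2 reached the level required of members only in scramble cells, so part of this difference is built into its choice. Robo1 and Robo4 stayed under 0.1 CPM in every group.

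The ephrins split by member rather than by class. Efna5 (chromosome 17, 62604184 to 62881317, minus strand) was at 26.13, 26.22 and 27.27 CPM in scramble, 67.8, 64.88 and 65.53 in knockdown and 72.43, 74.43 and 68.94 in add-back libraries. The hairpin libraries all lay above scramble. Efna5 rose by 1.32 ± 0.04 (edgeR adjusted p = 3.84e-13), and its neighbours had a median of 0.39. Efnb2, the transmembrane partner of Ephb4, was at 96.92, 103.0 and 101.5 CPM in scramble and 157.8, 169.3 and 164.1 in knockdown libraries, and rose by 0.70 ± 0.04 (edgeR adjusted p = 8.79e-10). Falls were by 0.96 ± 0.10 for Efna3, 0.73 ± 0.27 for Efnb3, 0.42 ± 0.10 for Efna4 and 0.40 ± 0.11 for Efnb1. Efna1, at 14.58 ± 0.299 CPM (SD, n = 3) in scramble cells, differed by 0.07 ± 0.06 (edgeR adjusted p = 0.362). Efna1, Efna3 and Efna4 lie side by side on chromosome 3, with gaps of 32756 and 10424 bases, among genes whose median change was 0.46 to 0.49. Efna3 and Efna4 thus fell in a stretch where the median tested gene was higher.

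Among Eph receptors, Epha4 was nearly undetected in scramble cells and rose with the Eya3 hairpin. Epha4 (chromosome 1, 77367185 to 77515088, minus strand), a receptor that binds ephrins of both classes, was at 0.03094, 0 and 0 CPM in scramble libraries. It was at 2.848, 2.663 and 2.898 CPM in knockdown and 1.847, 2.403 and 2.357 CPM in add-back libraries. The scramble group held 2 counts and the knockdown group 655, a ratio of 305 with an exact 95% interval of 84.2 to 2530 for counting error only (edgeR adjusted p = 4.12e-11). Epha4 reached the level required of members only with the Eya3 hairpin, so part of this difference is built into its choice. Its neighbours had a median of 0.03. Even so, its level in knockdown cells, 0.348 CPM per kilobase, was far under that of Epha2 at 98.8 CPM per kilobase. Epha5 went the other way, with 43 counts in scramble and 1 in knockdown cells, a ratio of 46.1 with an exact 95% interval of 7.84 to 1860, and was too low for the test. Epha5 reached the level required of members only in scramble cells, so part of this difference is built into its choice.

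The abundant Eph receptors changed less. Epha2 was at 591.7, 574.6 and 539.5 CPM in scramble and 507.3, 440.3 and 438.3 in knockdown libraries, and fell by 0.30 ± 0.06 (edgeR adjusted p = 0.000241). Ephb4 and Ephb2 differed by -0.01 ± 0.04 and 0.06 ± 0.05, and their libraries overlapped between groups. Ephb6, which lacks kinase activity, was at 2.738, 2.1 and 2.059 CPM in scramble, 1.249, 1.236 and 0.9306 in knockdown and 1.201, 1.173 and 1.2 in add-back libraries. Scramble was again the higher group without overlap, and Ephb6 fell by 1.01 ± 0.17 (edgeR adjusted p = 9.69e-05). Ephb3 fell by 0.54 ± 0.11 and Epha7 rose by 0.37 ± 0.10.

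**Figure D4:**
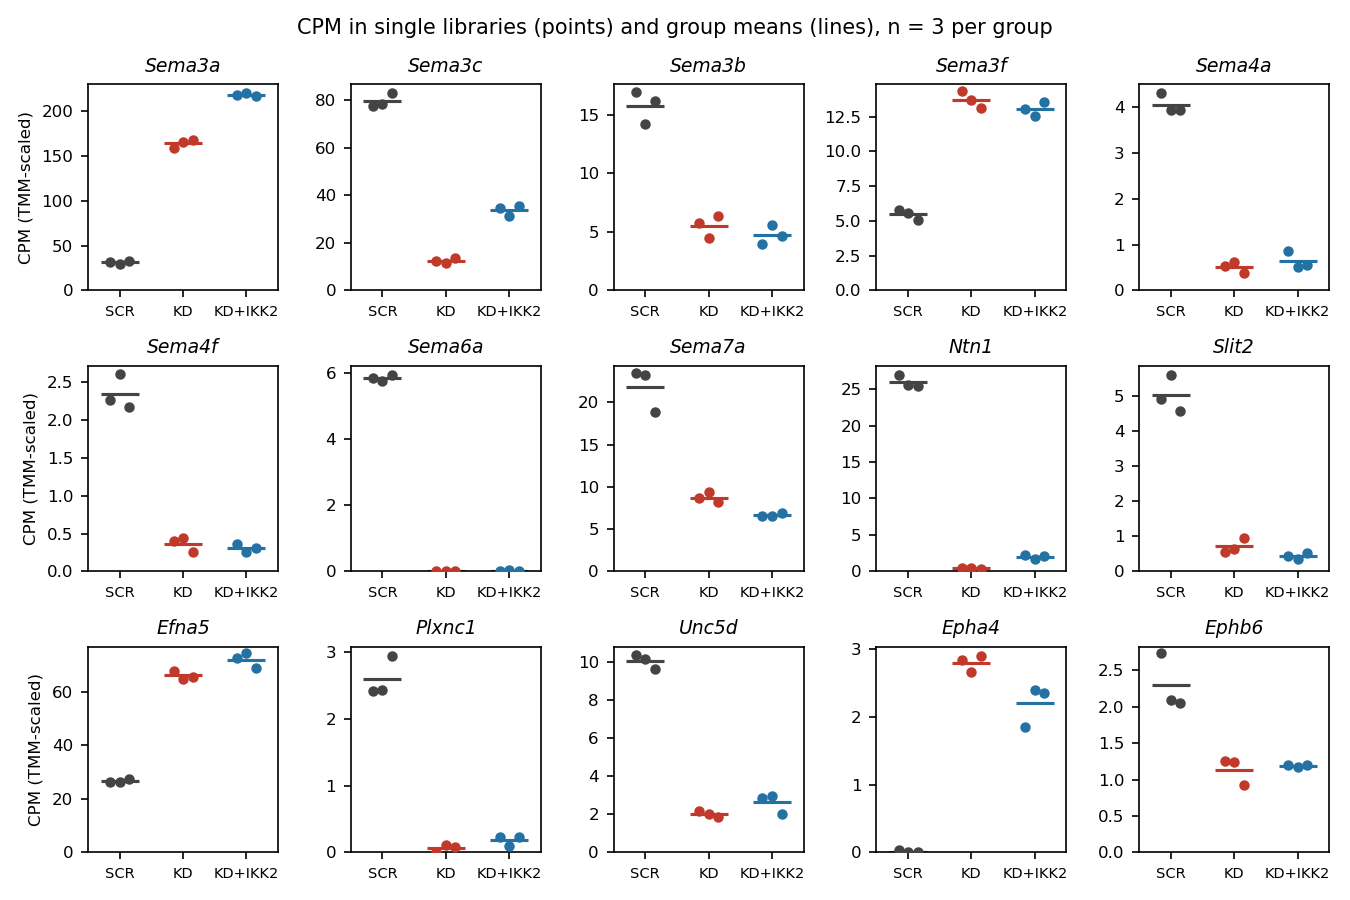
CPM (y axis, from 0, with a scale of its own in each panel) of 15 members in every library, with SCR for scramble, KD for knockdown and KD+IKK2 for add-back and lines at the group means (n = 3). The add-back means lie nearer to the knockdown means than to the scramble means, Sema6a is near 0 in both hairpin arms and Epha4 near 0 in scramble.

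Add-back against knockdown asks which of these genes differ with active IKK2 while Eya3 stays reduced. Of the 44 tested members, 5 rose and 3 fell, against 10.4% of all tested genes in either direction, 5.61% higher and 4.82% lower. The risers were Ntn1, Sema3c, Sema3a, Sema4c and Sema3e, all of them ligands, as were 27 of the 44 tested members. Of the 17 receptors tested, DESeq2 called 1 higher. The fallers were Sema7a, Unc5b and Plxnb2. With library totals as the scaling 8 rose and 3 fell, and without a filter on low counts 9 rose and 5 fell among all 50 members. This comparison and the one with scramble share the knockdown libraries, so the changes are set side by side as values and not as separate evidence.

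Ntn1 rose by 2.24 ± 0.16 with IKK2-SE (edgeR adjusted p = 1.05e-07), to a mean of 2.027 ± 0.307 CPM (SD, n = 3), 7.82% of the scramble mean. Sema3c rose by 1.43 ± 0.07 (edgeR adjusted p = 3.87e-10) and reached 42.4% of the scramble mean. Sema4c rose by 0.27 ± 0.06 (edgeR adjusted p = 0.0102) to 18.39 ± 0.623 CPM (SD, n = 3), between knockdown at 15.25 and scramble at 24.37 CPM. Sema3e rose by 0.18 ± 0.04 (edgeR adjusted p = 0.00457). In these 4 ligands the change with IKK2-SE was opposite to that with the hairpin. In Sema3a it had the same sign: Sema3a rose by a further 0.41 ± 0.04 (edgeR adjusted p = 2.23e-06), to 218.9 ± 1.80 CPM (SD, n = 3), 6.97-fold the scramble mean.

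Sema7a and Unc5b also moved on in the direction of the knockdown. Sema7a fell by a further 0.38 ± 0.09 (edgeR adjusted p = 0.0128) and Unc5b by a further 0.25 ± 0.05 (edgeR adjusted p = 0.00568), to 56.7, 57.2 and 57.87 CPM. Plxnb2 fell by 0.20 ± 0.05 (edgeR adjusted p = 0.0146), to 239.3 CPM from 275.2 CPM. Calls on Sema4c and Sema7a were lost without knockdown replicate 2 (adjusted p = 0.0538 and 0.0786). The call on Plxnb2 was lost without knockdown replicate 1 (0.0768) or add-back replicate 3 (0.0772).

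Of the 7 ephrins and 7 Eph receptors tested, 0 passed edgeR's test between add-back and knockdown cells, and 0 with DESeq2 or limma voom. With 10.4% of all tested genes called, 0 of so few genes is near the background. At an unadjusted edgeR p under 0.05 there were 2 ephrins (Efna3 and Efna5) and 1 Eph receptor (Epha7). Efna3, Efna5 and Efnb2 passed in 2, 3 and 1 of 17 alternatives. Efna3 differed by 0.30 ± 0.10 (edgeR adjusted p = 0.0713) and Efna5 by 0.12 ± 0.04 (0.0807). Sema6a, Plxnc1 and Slit2 differed by 1.38 ± 1.36, 1.53 ± 0.57 and -0.72 ± 0.24 (edgeR adjusted p = 0.635, 0.114 and 0.0716), and with DESeq2 Plxnc1 and Slit2 passed (0.0187 and 0.0334). Unc5d differed by 0.40 ± 0.14 (0.085) and Sema4g by 1.42 ± 0.44 (0.052). Epha4 differed by -0.35 ± 0.17 (0.255) and Sema4a by 0.33 ± 0.24 (0.484).

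Set against scramble, the add-back cells gave 24 falls and 9 rises among the 44, with 55.8% of all tested genes called in either direction, 28.7% lower and 4533 genes of 16766 higher. This comparison uses the same scramble libraries as the one above. Ntn1 and Sema3c were still lower than in scramble cells by 3.67 ± 0.10 and 1.24 ± 0.06 on the log2 scale (edgeR adjusted p = 5.57e-14 and 5.01e-11). Sema3e fell by 0.11 ± 0.04 (edgeR adjusted p = 0.0164), a call lost without scramble replicate 3 (0.0773) or add-back replicate 1 (0.0884). Slit2 fell by 3.53 ± 0.20 and Sema7a by 1.71 ± 0.09. Ntn5 fell by 1.86 ± 0.67 (edgeR adjusted p = 0.0276), which was lost without scramble replicate 1, 2 or 3 or add-back replicate 3 (0.0805, 0.0619, 0.0551 and 0.0811). Efna4 and Plxna1 fell by 0.33 ± 0.10 and 0.15 ± 0.05, lost without scramble replicate 2 (0.0725) and add-back replicate 3 (0.0654). Efna5 rose by 1.44 ± 0.04 and Epha4 had 475 counts against 2, a ratio of 239 (exact 95% interval 65.8 to 1980).

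Promoter windows were searched on both strands for the kappaB motif bound by NF-kB and for TCAGGTT, the MEF3 motif of the sine oculis homeobox factors, with which Eya proteins act. Of the 50 members, 42 had a promoter in the RefSeq table. The kappaB motif was found for 5 of them (Ephb2, Sema4a, Sema4b, Sema4c and Sema6c) and for 5.14% of all 27025 symbols. TCAGGTT was found for 2 (Plxnb2 and Sema4b) and for 4.73% of all symbols. A match is a description of the letters, and no match says only that they are not in this window. The windows of Sema4a and Sema4c are shown as examples of genes that fell with knockdown and hold a kappaB match, in capitals. Of these 2, only Sema4c passed the test with IKK2-SE, a call lost without knockdown replicate 2. Sema4b also fell and holds a match, and it did not pass with IKK2-SE (edgeR adjusted p = 0.514). Of the others with a match, Sema6c rose by 0.63 ± 0.13 with knockdown (edgeR adjusted p = 0.000714). Ephb2 differed by 0.06 ± 0.05 with knockdown (edgeR adjusted p = 0.368). The windows of Sema4b, Sema6c and Ephb2 are not printed.
Sema4a, chr3:88459052-88459351, minus strand: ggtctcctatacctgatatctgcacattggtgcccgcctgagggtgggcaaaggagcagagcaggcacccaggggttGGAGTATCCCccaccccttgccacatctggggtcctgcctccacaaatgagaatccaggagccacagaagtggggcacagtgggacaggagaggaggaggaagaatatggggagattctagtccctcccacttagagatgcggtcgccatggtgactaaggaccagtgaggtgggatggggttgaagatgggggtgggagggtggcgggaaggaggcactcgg
Sema4c, chr1:36558332-36558631, minus strand: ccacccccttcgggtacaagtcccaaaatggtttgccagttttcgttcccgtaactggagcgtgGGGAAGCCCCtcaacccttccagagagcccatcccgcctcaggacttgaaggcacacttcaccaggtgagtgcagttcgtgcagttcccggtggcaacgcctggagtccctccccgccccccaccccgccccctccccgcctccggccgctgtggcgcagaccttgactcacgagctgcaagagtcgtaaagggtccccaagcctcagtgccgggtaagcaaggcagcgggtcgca
The matches in these 2 windows begin at positions -173 and -186 from the RefSeq start. Whether Sema4a and Sema4c differ in their response to IKK2-SE was not tested.

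Other genes of these pathways were taken from lists of coreceptors with alternative ligands and of signal transducers. Of 14 coreceptors and alternative ligands, 10 were tested, and 6 rose and 4 fell with knockdown, against 57.5% of all tested genes called in either direction. Rgmb and Rgma, neogenin ligands, rose by 1.00 ± 0.05 and 0.79 ± 0.05, and Gpc1, a proteoglycan that binds Slits, rose by 0.58 ± 0.04. Flrt2, a ligand of Unc5 receptors, fell by 6.59 ± 0.38, from 4.709 to 0.04749 CPM. With IKK2-SE, 2 of the 10 rose (Nrp1 by 0.20 ± 0.05 and Nrp2 by 0.31 ± 0.04) and Gpc1 fell by 0.29 ± 0.04, against 10.4% of all tested genes called.

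Of 52 signal transducers, 46 were tested, and 19 rose and 16 fell with knockdown, against 27.7% and 29.9% of all tested genes. Arhgef28, a guanine nucleotide exchange factor, fell by 5.35 ± 0.08, from 103.4 to 2.524 CPM, and Ablim1, an actin-binding protein, by 1.76 ± 0.05. Rhoa, the GTPase behind growth cone collapse, rose by 0.81 ± 0.03, and the kinase gene Pak3 by 0.87 ± 0.04. With IKK2-SE, 6 of the 46 rose and 4 fell, against 5.61% and 4.82% of all tested genes, and Ablim1 was among the risers, by 0.80 ± 0.05 (edgeR adjusted p = 7.3e-09). The median change of the 46 with knockdown was 0.03, and its median size 0.22 against 0.32 over all tested genes.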

How the data were processed

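Messenger RNA was sequenced from 9 libraries of 66cl4 cells, 3 each of scramble, knockdown and add-back. The deposited table holds raw counts, 1 whole number per gene symbol and library. Reads were processed by the authors with FastQC, MultiQC and STAR on mm10, per the submitters' processing notes, and what counted the reads, on which annotation and with which strand setting, is not given in the sources used here. Of the 50 members, 19 overlap a gene on the opposite strand, among them Ntn1, Sema3a and Slit2, and reads of such pairs may not be told apart. Columns of the 6 hairpin libraries say KD3 where the titles say KD2 and were matched on arm and replicate number.

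Counts were filtered with filterByExpr (minimum count 10, minimum total 15), TMM-scaled and fitted with edgeR 4.0.16 in R 4.3.3 (quasi-likelihood, robust, group only, all 9 libraries, 6 residual degrees of freedom), with Benjamini-Hochberg adjustment over 16766 genes. The SE is the log2 change over the square root of F. Exon lengths and positions are from GENCODE M21, with a position for 96.9% of tested genes. The fit was first tested on simulated data. Alternatives used limma 3.58.1, DESeq2 1.42.0, other scalings and filters, a replicate block and single libraries left out. Members, lists and rules were chosen with earlier results of these data known. Full values are given for members called in a comparison with a log2 change of at least 1 and a mean of at least 1 CPM in a group, for the 2 highest members per family, and for up to 4 genes of each other list with the smallest adjusted p. Neuropilins, Neo1, Dcc and Itgb1 were named as receptors of the members.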

Additional observations from a re-analysis of the deposited data

How the results depend on the processing

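All values here are members called by the adjusted p of each tool. Between knockdown and scramble, 37 of 44 tested members kept their call in every alternative that tested them, 4 called members lost it in some and 3 others gained it in some. Between add-back and knockdown these were 33, 3 and 8, and between add-back and scramble 36, 4 and 4. No called member changed direction in any of these alternatives. Not every alternative tested all 44: the filter of at least 1 CPM in 3 libraries tested 37. Fitting only the 2 groups of add-back against knockdown tested 41. In add-back against knockdown, members called higher numbered 8 with library totals, 9 without a filter on low counts and 9 with the replicate block, against 5, and members called lower numbered 5 without the filter and 5 with the replicate block, against 3. The cause was not tested, beyond the 50 members tested without the filter. Leaving out 1 library gave 9 to 13 higher and 24 to 27 lower between knockdown and scramble, 5 to 7 and 2 to 4 between add-back and knockdown, and 9 to 12 and 22 to 25 between add-back and scramble. The fits with 1 library left out tested 44 to 47 members. Deviations of same-numbered libraries correlated by -0.011 to 0.123, and not every library correlated best with its own number. Replicate 1 did in each pair of groups, by 0.062, 0.123 and 0.027 against at most -0.02, -0.051 and 0.01 for other numbers. Replicate 2 did in none. Whether equal numbers mark paired libraries was therefore not settled. Library totals moved the median of all genes by -0.05, 0.03 and -0.02 on the log2 scale in the 3 comparisons.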

Other observations

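Values too low for the test also differed between arms. The 6 members not tested each met the 0.1 CPM rule in 1 group only, 4 in scramble and 2 in add-back cells. Their differences are thus in part built into their choice. Plxna4, a semaphorin 6A and class 3 receptor, had 25, 0 and 21 counts over the scramble, knockdown and add-back groups. With 3 counts taken as a floor for the knockdown group, it was 8.93-fold lower than in scramble cells, counting error in the 25 left out. The 21 add-back counts came from 2 of the 3 libraries (0.06597, 0 and 0.2286 CPM). Plxnb1, the receptor of Sema4d, had 28, 4 and 12 counts, Sema3d 20, 9 and 27, and Epha10, which lacks kinase activity, 3, 20 and 23. The 16 symbols outside the rule were Efna2, Epha1, Epha3, Epha6, Epha8, Ephb1, Ntn3, Ntn4, Robo1, Robo4, Sema5b, Sema6d, Slit1, Slit3, Unc5a and Unc5c.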
